A study of Mus musculus with 8 samples.

Results

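The genes described here are a set of 36 antioxidant and glutathione genes: targets of the transcription factor NRF2, enzymes that make or use glutathione, peroxiredoxins, thioredoxins, superoxide dismutases and ferritins. They were chosen by symbol, and a gene entered through every probe set annotated to its symbol and to no other. Of the 36, 31 had such a probe set, of 18193 genes with one in all, and all 31 were among the 13125 genes bright enough to be tested. The probe sets of Prdx1 and Ftl1 each carry a further symbol and gave no value, and Prdx5, Prdx6 and G6pdx were not analysed here. Expression had been measured with Affymetrix mouse 430_2 arrays, 1 per clone, in 8 mouse clones of induced pluripotent stem (iPS) cells from embryonic fibroblasts of the Col-OKSM strain, in which doxycycline switches on Oct4, Sox2, Klf4 and cMyc. Ascorbic acid (vitamin C) was in the medium while 4 clones were derived and was left out for the other 4. The labels give neither its dose, nor the time for which clones were grown, nor the number of embryos behind the clones. What both groups shared was serum medium with LIF, doxycycline and beta-mercaptoethanol, itself a reducing agent, on irradiated fibroblast feeders. Feeders were reduced by preplating before RNA was taken, and that RNA was not treated with DNase.

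NRF2, encoded by Nfe2l2, is held in the cytoplasm by KEAP1, which presents it for degradation. Oxidants and electrophiles modify cysteines of KEAP1, after which NRF2 accumulates, enters the nucleus and binds antioxidant response elements with small MAF proteins. Its targets conjugate and export toxic compounds, supply glutathione and NADPH, and store iron. Glutathione and thioredoxin are the main thiol reductants of the cell, and glutathione also reduces oxidized ascorbate, which is why the set is of interest in cells given this vitamin. The comparison asks whether RNA of these genes differed between clones derived with and without it.

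No gene of the set passed the test. Of the 31 tested members, 0 had an adjusted p under 0.05 (limma over all 13125 genes), where 0.0229% of all tested genes did, and 2 had an unadjusted limma p under 0.05, where 5.83% of all tested genes did. Both were higher with ascorbic acid: Hmox1, heme oxygenase 1, and Gpx7, a peroxidase of the endoplasmic reticulum. In all, 13 members had a positive and 18 a negative difference, and their median was -0.018 log2, beside -0.0042 over all tested genes, of which 48.6% were positive. The counts turned to 16 positive and 15 negative with a median of 0.0036 under quantile normalization, and to 17 and 14 with a median of 0.016 under median centring. Over all tested genes, quantile normalization gave 6629 of 13126 positive, with a median of 0.0013. Median centring gave 7890 of 13125 positive, with a median of 0.029, above that of the members.

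The arrays limited how large a difference could have gone unseen. The 95% intervals of the 31 members, each taken alone, ran from -0.35 (Tkt) to 0.50 (Hmox1) on the log2 scale. At their outer ends these correspond to 0.782-fold and 1.42-fold. Changes larger than these bounds were outside the interval of every tested member on its brightest probe set. For 29 of them a difference of 0 was inside it. The bounds do not cover the dimmer probe sets. Among those, 1 of Gstm1 was at -0.38 ± 0.17 log2 and 1 of Nfe2l2 at 0.30 ± 0.16 (SE, n = 4 each). These intervals come from the spread between 4 clones per group and are not adjusted for the number of genes. RNA came from many cells together after preplating, so fewer cells of a type and less RNA per cell cannot be told apart.

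**Figure D1:**
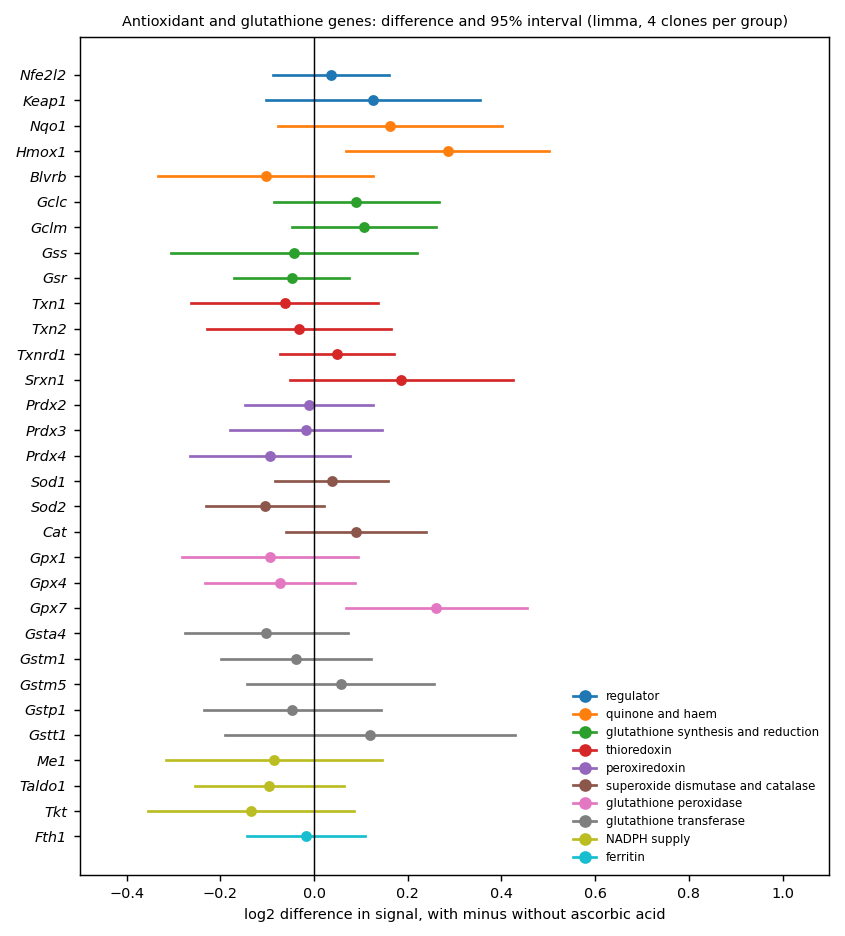
Log2 difference in signal, with minus without ascorbic acid (x axis), for the 31 tested antioxidant and glutathione genes (y axis), coloured by role; points are limma estimates and bars their 95% intervals, 4 clones per group. The intervals of Hmox1 and Gpx7 lie to the right of 0, and those of the other 29 members include it.

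Neither of the regulators passed the test. Nfe2l2 read 2569, 2889, 2812 and 2904 in clones 1 to 4 with ascorbic acid and 2633, 2745, 2703 and 2805 in clones 1 to 4 without. The groups overlapped almost fully, with a log2 difference of 0.036 ± 0.057 (SE, n = 4 each; limma, adjusted p = 0.951). Its second probe set, at 217.6 ± 36.1 with and 173.1 ± 24.1 without (SD, n = 4 each), was at 0.30 log2 (limma over all probe sets, adjusted p = 0.870). Both probe sets averaged gave 0.17 log2 (limma, unadjusted p = 0.0305, adjusted p = 0.838). Keap1 read 695, 843, 709 and 741 with and 810, 578, 651 and 707 without. Its highest and its second highest clone belonged to different groups, and the log2 difference was 0.13 ± 0.10 (SE, n = 4 each; limma, adjusted p = 0.894). Its second probe set was at 0.0078 log2 (adjusted p = 0.996).

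The antioxidant response element to which NRF2 binds was searched for in the 250 bases before each transcription start, as TGACNNNGC on either strand. The promoter table (RefSeq, GRCm38.p6) holds 40 starts of 31 of the 36 members, and Hmox1, Gclc, Gsr, Gsta4 and Prdx6 are not among them. A match was found at 7 of the 40 starts (17.5%) and at 10.2% of all 32851 starts in the table. The 5 matches that lie at tested members are shown with 10 bases on either side, on the strand that reads the element, whose letters are in capitals. They are printed as sequence only, and whether NRF2 binds them in these cells was not tested.
Nfe2l2, chr2:75704885-75704913, minus strand: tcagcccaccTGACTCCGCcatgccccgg
Gclm, chr3:122245413-122245441, minus strand: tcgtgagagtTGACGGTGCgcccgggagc
Txnrd1, chr10:82859104-82859132, minus strand: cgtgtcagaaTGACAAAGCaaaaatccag
Sod1, chr16:90220696-90220724, minus strand: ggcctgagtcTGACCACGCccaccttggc
Gstm5, chr3:107895802-107895830, plus strand: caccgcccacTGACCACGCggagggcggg
The element begins with letters it shares with the AP-1 site TGACTCA, and 0 of these 5 windows holds that site. From the element's near edge to the start there were 34 bases at Gstm5, 48 at Sod1, 84 at 1 of the 3 starts of Txnrd1, 126 at Gclm and 232 at Nfe2l2. The 5 genes had log2 differences of 0.036 (Nfe2l2), 0.11 (Gclm), 0.049 (Txnrd1), 0.037 (Sod1) and 0.056 (Gstm5), and none passed the test; that of Sod1 turned negative with other probe sets. The 22 tested members whose windows held no match had 6 positive and 16 negative differences, a split that moved to 9 and 13 after quantile normalization and to 10 and 12 after median centring. The 5 with a match stayed positive under both scalings. Median centring also moved the median of all tested genes from -0.0042 to 0.029 log2. The same split was not made for all tested genes, and a link between the element and the differences was not tested. A match of 9 letters is not evidence of binding, and a missing match speaks only for these windows.

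Among the NRF2 targets of quinone and heme metabolism, Hmox1 had the largest difference of the set. It opens the heme ring and releases iron, carbon monoxide and biliverdin. Its signal was 1422, 1430, 1291 and 1572 with ascorbic acid and 1139, 1409, 1176 and 982 without. The 4 clones with the vitamin lay above 3 of the 4 without it, and clone 2 without it reached into their range. The difference was 0.28 ± 0.10 log2 (SE, n = 4 each), or 1.22-fold, with an unadjusted limma p of 0.0144, an adjusted p of 0.759 and a two-sided exact permutation p of 0.0571. Leaving out 1 clone at a time gave 0.20 to 0.37 log2, the lowest without clone 4 that had no ascorbic acid. Nqo1, a quinone reductase and a standard reporter of NRF2 activity, read 622, 589, 538 and 592 with and 535, 578, 574 and 413 without. Its difference of 0.16 ± 0.11 log2 (SE, n = 4 each; limma, adjusted p = 0.857) leaned on the low value of clone 4 without ascorbic acid: without that clone it was 0.055. The same clone was the lowest of all 8 for Hmox1. Blvrb, biliverdin reductase B, had a difference of -0.10 ± 0.11 log2 (SE, n = 4 each; adjusted p = 0.916), with 637 to 912 in the clones with and 790 to 905 in those without.

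**Figure D2:**
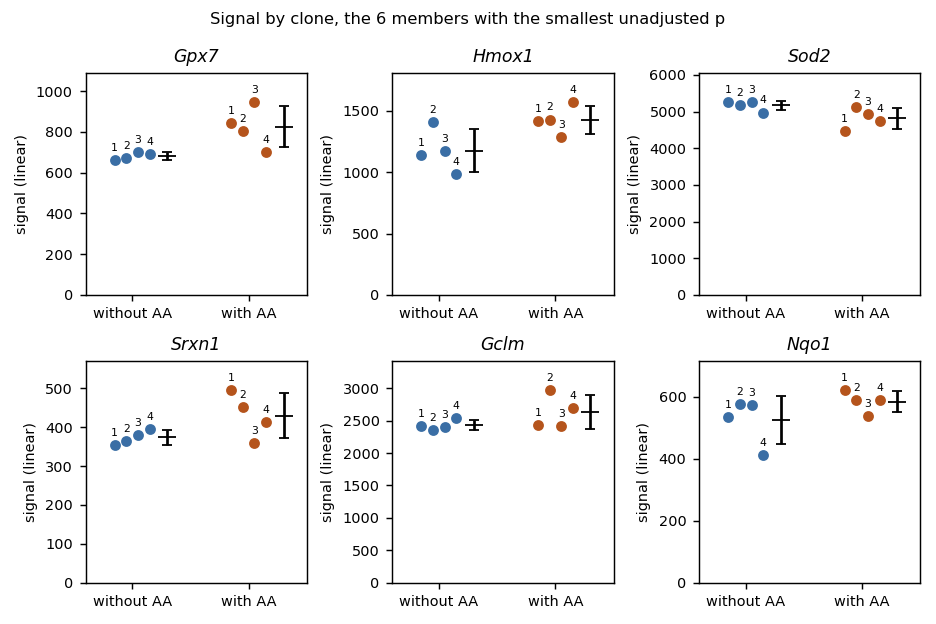
Signal on a linear scale (y axis) in each clone without and with ascorbic acid (x axis, clone numbers above the points) for the 6 members with the smallest unadjusted p; bars beside the points are mean ± SD, n = 4. Only Gpx7 shows no overlap of the groups, its lowest clone with the vitamin at 703 against 702 for the highest without.

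Glutathione is made by a ligase and a synthetase and kept reduced by a reductase. Gclc and Gclm, the catalytic and modifier subunits of glutamate-cysteine ligase, which sets the rate of synthesis, both had small positive differences. Gclm read 2429, 2970, 2419 and 2693 with and 2419, 2358, 2406 and 2544 without, where clones 2 and 4 with ascorbic acid stood above the remaining 6. The log2 difference was 0.11 ± 0.070 (SE, n = 4 each; limma, adjusted p = 0.850). Gclc ranged from 1525 to 1872 with and from 1399 to 1734 without, a difference of 0.090 ± 0.081 log2 (SE, n = 4 each; adjusted p = 0.901). The second probe sets of the ligase subunits gave 0.10 for Gclc and 0.11 for Gclm, close to the first. Gss, glutathione synthetase, was among the most variable members, from 499 to 673 with and from 539 to 762 without (log2 difference -0.042 ± 0.12, SE, n = 4 each; adjusted p = 0.974). Gsr, which reduces oxidized glutathione with NADPH, was among the steadiest, from 2345 to 2633 with and from 2431 to 2612 without (-0.048 ± 0.056, SE, n = 4 each; adjusted p = 0.928).

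The thioredoxin genes also stayed within the spread of the clones. Txnrd1, the selenium enzyme that reduces thioredoxin in the cytosol, read 7657, 8334, 8203 and 8440 with and 7903, 7714, 8025 and 7884 without. That is 3 clones with ascorbic acid above all 4 without and 1 below them, a log2 difference of 0.049 ± 0.056 (SE, n = 4 each; limma, adjusted p = 0.927). Srxn1, sulfiredoxin, which restores over-oxidized peroxiredoxins, read 495, 451, 360 and 412 with and 354, 365, 381 and 395 without. The group with ascorbic acid was spread more widely and contained the 3 highest clones, and the log2 difference was 0.19 ± 0.11 (SE, n = 4 each; adjusted p = 0.844). This value rests on an _s_at probe set, a class that can read several transcripts; the other 2 Srxn1 probe sets above the brightness limit were at 0.0099 and 0.034. Cytosolic Txn1 had a difference of -0.063 ± 0.091 log2 (SE, n = 4 each), with an adjusted p of 0.942, and mitochondrial Txn2 one of -0.033 ± 0.090 (adjusted p = 0.971).

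Peroxiredoxins reduce hydrogen peroxide with electrons from thioredoxin, and the 3 that could be read had small negative differences. Prdx2, in the cytosol, ranged from 6361 to 7531 with and from 6755 to 7122 without ascorbic acid. Prdx3, in mitochondria, ranged from 1049 to 1280 and from 1121 to 1231, and Prdx4, in the endoplasmic reticulum, from 2561 to 3153 and from 2642 to 3164. In all 3 genes the lower end of the range came from a clone with ascorbic acid, and for Prdx2 and Prdx3 so did the upper end. Their log2 differences were -0.012, -0.018 and -0.095, with limma adjusted p from 0.894 to 0.984, and those of Prdx2 and Prdx3 changed sign under median centring.

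Superoxide dismutases turn superoxide into hydrogen peroxide, which catalase splits. Sod2, the manganese enzyme of mitochondria, read 4466, 5126, 4930 and 4730 with and 5259, 5185, 5255 and 4976 without. Clones 1, 3 and 4 with ascorbic acid lay below all 4 clones without it, and clone 2 with it did not. The difference of -0.10 ± 0.058 log2 (SE, n = 4 each; limma, adjusted p = 0.844; exact permutation p = 0.0571) was negative on all 4 of the gene's probe sets, from -0.11 to -0.078. Sod1, the copper and zinc enzyme of the cytosol, gave 0.037 ± 0.055 log2 (SE, n = 4 each; adjusted p = 0.946) on its brightest probe set and -0.11 on the next, so its sign depended on the probe set. Cat, catalase, ranged from 1825 to 2111 with and from 1649 to 1891 without, a difference of 0.089 ± 0.068 log2 (SE, n = 4 each; adjusted p = 0.882).

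Of the 3 glutathione peroxidases among the members, 2 selenium enzymes had negative differences and 1 cysteine enzyme a positive one. Outside the members, Gpx3, also a selenium enzyme, was at 0.15 log2, and Gpx8, also a cysteine enzyme, at 0.074. Gpx7, the cysteine enzyme among the members, read 844, 806, 946 and 703 with and 663, 670, 702 and 693 without ascorbic acid. It was the 1 member of 31 whose groups did not overlap, beside 3.63% of all tested genes, and it was separated by a narrow margin, with clone 4 of the first group at 703 and clone 3 of the second at 702. The log2 difference was 0.26 ± 0.089 (SE, n = 4 each), or 1.20-fold, with an unadjusted limma p of 0.0124, an adjusted p of 0.757 and a two-sided exact permutation p of 0.0286, the smallest 4 against 4 clones can give. Without clone 3 with ascorbic acid, its highest, the difference was 0.19. A single probe set reads Gpx7, as is the case for Hmox1, so neither can be compared with a second. Gpx1, in the cytosol and mitochondria, ranged from 5836 to 7399 with and from 6323 to 7416 without, and Gpx4, which reduces lipid peroxides in membranes, from 10358 to 12841 and from 11556 to 12759. Their log2 differences were -0.094 ± 0.087 and -0.073 ± 0.073 (SE, n = 4 each; adjusted p = 0.903 and 0.915).

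Glutathione transferases couple glutathione to electrophiles. Gsta4, which acts on the lipid peroxidation product 4-hydroxynonenal, had a log2 difference of -0.10 ± 0.080 (SE, n = 4 each; limma, adjusted p = 0.885) and Gstp1 one of -0.047 ± 0.087 (adjusted p = 0.958). Gstm5 was at 0.056 ± 0.092 (adjusted p = 0.953), and Gstt1, the most variable member, at 0.12 ± 0.14 (adjusted p = 0.930), with 256 to 365 in the clones with and 245 to 319 in those without. Gstm1 was the gene whose probe sets differed most. Its brightest probe set, of the _x_at class, read 1004, 1015, 978 and 1176 with and 1073, 1139, 1037 and 1030 without, a log2 difference of -0.038 ± 0.073 (SE, n = 4 each; adjusted p = 0.959). The other 3 gave -0.22, -0.38 and -0.33. On the brighter of the 2 without a class suffix the signal was 667, 747, 659 and 753 with and 797, 898, 709 and 913 without. There 3 of the 4 clones without ascorbic acid lay above all clones with it, but the unadjusted limma p of 0.0347 became 0.870 after adjustment over all probe sets. The dimmer of the 2 read 171, 103, 198 and 284 with and 241, 288, 174 and 227 without. Its groups overlapped (limma, adjusted p = 0.896). The mean of the 4 probe sets was at -0.24 log2 (limma, adjusted p = 0.878).

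**Figure D3:**
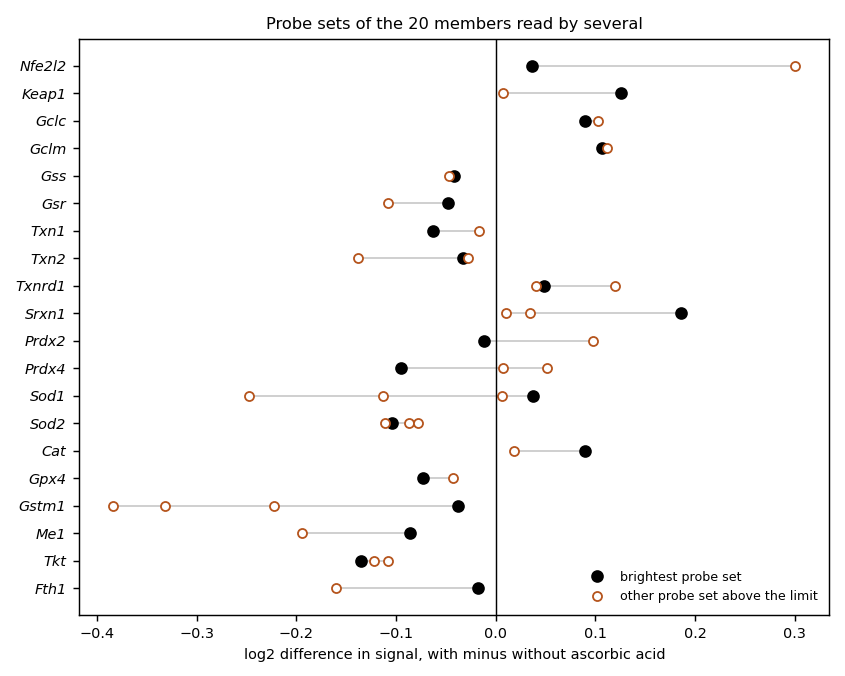
Log2 difference in signal, with minus without ascorbic acid (x axis), for each probe set above the brightness limit of the 20 members that have at least 2 (y axis); filled points are the brightest probe set of a gene, open points the others. In 17 of the 20 all points lie on one side of 0, and the widest span is that of Gstm1, from -0.38 to -0.038.

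Over the whole set, 62 of 65 probe sets were above the limit, of which 26 had a positive and 36 a negative difference. Of these, 0 passed over all 23147 probe sets tested in limma, and 4 had an unadjusted p under 0.05: Hmox1, Gpx7 and 2 of Gstm1. Counted by gene, 5.83% of all tested genes had such a p and 48.6% a positive difference. The shares over all probe sets were not counted. Prdx2, Prdx4 and Sod1 were the 3 genes with probe sets on both sides of 0.

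The 3 tested members grouped under NADPH supply, of which only Me1 makes NADPH itself, had negative differences, and none passed the test. Other genes of NADPH metabolism outside the members went both ways. Positive were Nnt at 0.22, Pgls at 0.077, Idh1 at 0.045 and Nadk at 0.016 log2. Negative were H6pd at -0.19, Idh2 at -0.13, Pgd at -0.088 and Nadk2 at -0.0034. Tkt and Taldo1, transketolase and transaldolase of the pentose phosphate pathway, were at -0.14 ± 0.10 and -0.096 ± 0.073 log2, and Me1, cytosolic malic enzyme, at -0.086 ± 0.11 (SE, n = 4 each; limma, adjusted p from 0.881 to 0.934). Tkt, on its brightest probe set, of the _x_at class, read 12281, 14415, 16546 and 12664 with and 16678, 13413, 15210 and 15860 without. Clones 1 and 4 with ascorbic acid were the lowest of the 8, and clone 3 with it was the second highest. The other Tkt probe sets were at -0.12 and -0.11 log2 (limma over all probe sets, adjusted p = 0.8732 and 0.9535). Fth1, the ferritin heavy chain, which oxidizes and stores iron, ranged from 9483 to 10148 with and from 9537 to 10430 without on its brightest probe set (-0.018 ± 0.058, SE, n = 4 each; adjusted p = 0.975). Its second probe set, of the _s_at class, averaged 8379 with and 9357 without and stood at -0.16 log2 (limma, unadjusted p = 0.0564 and adjusted p = 0.870).

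The 10 brightest members deviated together in several clones. With the scaling as deposited, 8 of the 10 members with a mean signal over 5000 had a negative difference (80%), and so did 72.8% of the 651 tested genes that bright. Of the 21 members up to that signal, 10 had a negative difference. The bright members read low together in clone 1 with ascorbic acid, where 9 of 10 were below their own mean over the 8 clones, with a median deviation of -0.16 log2. In clone 2 without it 9 of 10 and in clone 4 with it 7 of 10 were below. The 651 tested genes that bright also read low there. Their median deviations were -0.126 log2 in clone 1 with, -0.0651 in clone 2 without and -0.0569 in clone 4 with. For the bright members they were -0.16, -0.0496 and -0.0612. Of the 21 dimmer members, 10 to 14 were below their own mean in 7 clones. In clone 2 with ascorbic acid 3 of the 21 were, with a median deviation of 0.105 log2. The summed feeder markers of that clone, at 60930, stood above the rest of its group. They lay within the 57508 to 62126 of the clones without ascorbic acid, and a link to the dimmer members was not tested. The share of an array's signal taken by its 100 brightest probe sets was lowest in the same 3 clones: 6.08% in clone 1 with, 6.40% in clone 4 with and 6.61% in clone 2 without, against 6.99% to 8.37% in the other 5. After quantile normalization 5 of the 10 bright members were positive and 5 negative, with a median of -0.00018 in place of -0.055, and the difference of Tkt went from -0.14 to -0.043. Hmox1 and Gpx7, both below this brightness, kept 0.28 and 0.25. The limit of 5000 was set after the values had been seen.

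**Figure D4:**
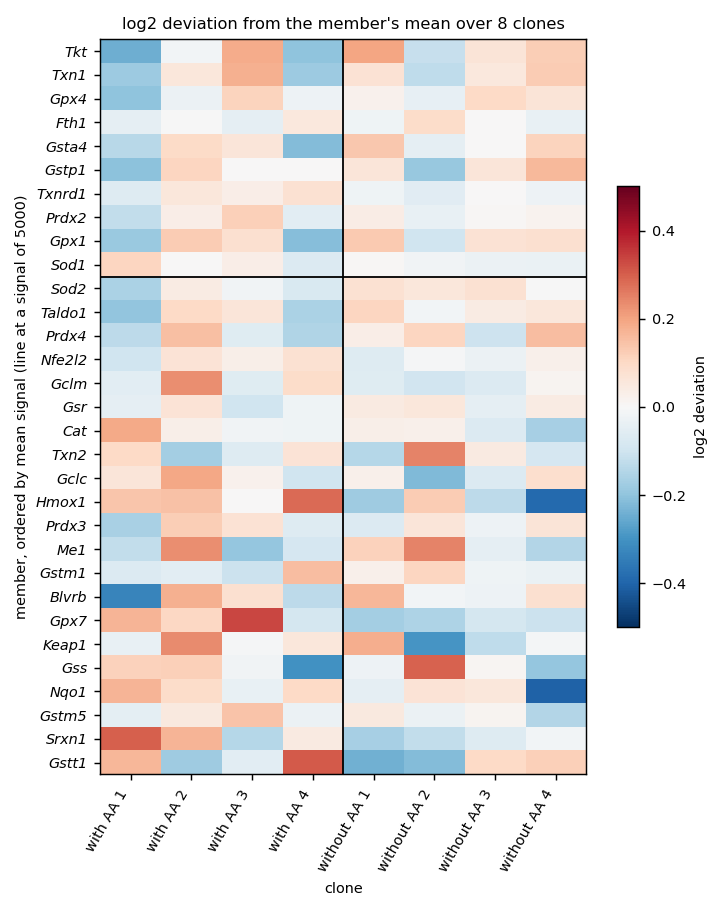
Log2 deviation of each member (rows, ordered by mean signal, brightest at the top) from its own mean in each clone (columns); red is above and blue below the mean, the horizontal line marks a signal of 5000 and the vertical line parts the groups. In clone 1 with ascorbic acid 9 of the 10 members above the line are below their mean. The 651 tested genes that bright had a median deviation of -0.126 log2 in that clone.

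**Figure D5:**
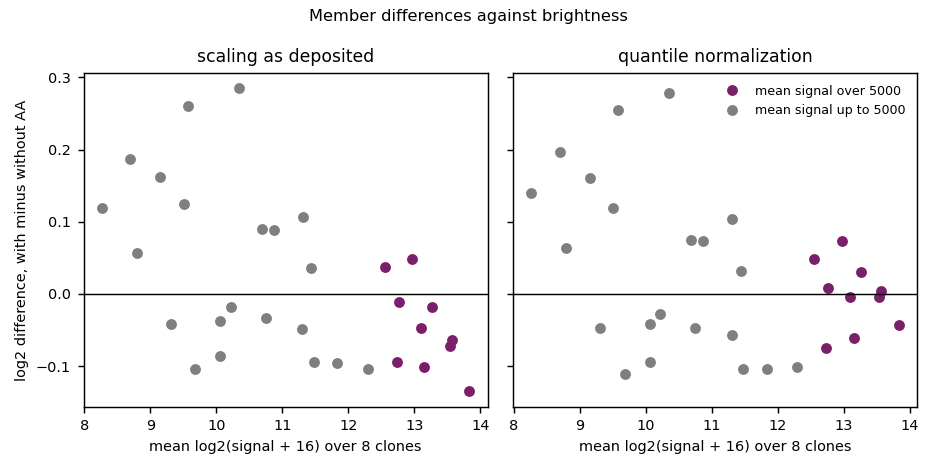
Log2 difference, with minus without ascorbic acid (y axis), against mean log2(signal + 16) over 8 clones (x axis) for the 31 members, with the scaling as deposited (left) and after quantile normalization (right). Of the 10 members with a signal over 5000, 8 lie below 0 on the left and 5 on the right.

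The spread between clones of a group was described by the within-group SD on the log2 scale. Over the members it had a median of 0.125 log2, beside 0.151 over all tested genes, and ran from 0.047 for Txnrd1 to 0.21 for Gstt1. Txnrd1, Fth1, Sod1 and Gsr were at percentiles 1.89, 2.96, 3.20 and 4.90 of all tested genes by this SD. Gstt1 and Gss were at percentiles 69.3 and 67.1. The 3 steadiest are bright and the 2 most variable dim, and the part of brightness in this order was not tested.

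Other genes of the same pathways were read next, from a list of 67 that covers cystine uptake, glutathione breakdown, other transferases and peroxidases, glutaredoxins, NADPH enzymes, heme and iron handling, and partners of NRF2. Of these, 57 were tested, 26 with a positive and 31 with a negative difference and a median of -0.0070 log2. In limma 0 passed and 3 had an unadjusted p under 0.05, 1 positive and 2 negative. The 4 with the smallest p were Nnt, which makes mitochondrial NADPH (1541 ± 145 with and 1315 ± 70.2 without), the epoxide hydrolase Ephx1 (822 ± 83.5 and 961 ± 90.3), Txnrd3, a thioredoxin reductase of testis (340 ± 23.3 and 400 ± 33.2), and Ggct, which breaks down gamma-glutamyl peptides (1974 ± 197 and 1768 ± 81.0; SD, n = 4 each). Their log2 differences were 0.22, -0.22, -0.23 and 0.15, with limma adjusted p from 0.757 to 0.844.

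Markers of other cells were read beside these values. Among 20 tested fibroblast and feeder markers 2 had a positive and 18 a negative difference, with a median of -0.18 log2 and 0 past the test in limma (6 with an unadjusted p under 0.05). The summed signal of the 22 such markers with a probe set, 2 of them below the limit, was 49079 to 60930 with and 57508 to 62126 without. Clone 2 with ascorbic acid, at 60930, stood above the other 3 of its group, at 49079 to 50692. The largest differences in this list were those of Twist1 at 0.52 and Postn at -0.38. Dcn and Lum, which mark mature fibroblasts, were below the brightness limit. All 11 iPS cell markers, among them Pou5f1 and Nanog, were above the limit. Summed, they read 91343 to 108704 with and 100723 to 115131 without. The other sums also cover markers below the limit. They were 8716 to 10829 and 10397 to 11165 for 12 primitive endoderm markers. For 9 trophectoderm markers they were 5325 to 7060 and 5507 to 7670, and for 6 blood markers 1327 to 1561 and 1541 to 1874. Of the 11 iPS cell markers 2 had a positive and 9 a negative difference, with a median of -0.11 log2 and 0 with an unadjusted limma p under 0.05. Of the negative ones, Pou5f1, Nanog, Sox2, Dppa5a, Tdgf1 and Utf1 had a mean signal over 5000. At that brightness 72.8% of all tested genes were negative. Zfp42, Esrrb and Fgf4, also negative, were dimmer, and the part of brightness in this split was not tested. The split was 6 and 5 for the 11 primitive endoderm markers and 2 and 5 for the 7 trophectoderm markers. The 4 tested blood markers were split 2 and 2, and 3 of them had an unadjusted limma p under 0.05: Hba-a1 at 0.57, Cd74 at -0.27 and Laptm5 at -0.26 log2 (adjusted p from 0.814 to 0.823). Only the groups of Cd74 did not overlap among these 3. Cdx2 and Elf5 of the trophectoderm list and Ptprc of the blood list were below the limit. The part of feeder RNA in the values of the members was not tested.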

How the data were processed

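Each deposited value is the linear signal intensity of a probe set. GCOS, Affymetrix operating software, is named in the submitters' processing notes, and its settings are not stated there. In the deposited intensity values each array has a mean of 500 after trimming 2% at each end. Signals were used as log2(signal + 16). Probe sets in the lowest 40% by mean (signal under 93.7) were left out, and the brightest probe set stood for a gene. Differences, with minus without ascorbic acid, were tested in limma 3.58.1 (R 4.3.3; eBayes with an intensity trend), two-sided, and Benjamini-Hochberg adjusted over all tested genes; the fit was tested on simulated data. Exact permutation tests used 70 assignments. Members, lists and the naming rule (every member; the 4 further pathway genes with the smallest p; the 2 largest changes of the fibroblast list) were chosen with earlier results of these data known. The clones are called biological replicates in the labels, but separate embryos or cultures are not named, so p-values cover only the spread among these clones. Array medians were 134 to 156 and correlations between arrays 0.976 to 0.982; the actin 3' to 5' ratio was 1.14 to 1.28. Drawings used matplotlib 3.10.9. Same-numbered clones did not deviate together (correlations -0.165 to 0.0117). Alternatives were other scalings, pseudocounts, dim filters, probe set rules, eBayes settings, array weights, a replicate block and leaving out each clone.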

Additional observations from a re-analysis of the deposited data

Results flagged for a closer look

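Each of 70 groups of 4 clones was examined for a single clone apart from its group. There were 2 such clones (2.86% of the groups), and about 1 in 20 groups would show one by chance. For Gsr it was clone 3 without ascorbic acid, at 2431, while the other 3 of its group read 2582 to 2612. For Txnrd3 it was clone 4 without ascorbic acid, at 449.8, while the other 3 read 381 to 385. The causes were not tested.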

How the results depend on the processing

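No member passed in limma under any of 20 alternatives, which gave 620 values with a lowest adjusted p of 0.591 and a largest difference of 0.37 log2. Hmox1 and Gpx7 kept their direction and an unadjusted p of at most 0.0482 and 0.0454 in all of them. The sign turned in 22 of the 620 values, in 8 members near 0. Under quantile normalization these were Txn1 (0.0036), Prdx2 (0.0087) and Fth1 (0.030); under median centring Txn2 (0.00035), Prdx2 (0.022), Prdx3 (0.016) and Fth1 (0.016). With the mean of probe sets Prdx2 was at 0.043 and Sod1 at -0.079, and without _s_at and _x_at probe sets Sod1 was at -0.11, since another probe set then reads it. Leaving out each clone gave -0.11 to 0.051 for Gss, -0.086 to 0.044 for Txn2, -0.053 to 0.028 for Prdx2, -0.061 to 0.033 for Prdx3, -0.12 to 0.014 for Gstp1 and -0.039 to 0.0099 for Fth1.

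Members with an unadjusted p under 0.05 numbered 2 to 4 when a clone was left out, 4 without clone 2 or clone 3 with ascorbic acid. For the further pathway genes this count was 1 to 8: 8 without clone 2 with ascorbic acid, and 1 without clones 1 or 4 with it or clones 2 or 4 without it. Median centring gave 20 of those genes negative in place of 31, with a median of 0.027; it moved the median of all genes by 0.034. Of all tested genes 1 passed without the trend and 1 with robust estimation, in place of 3, and 2 to 4 when a clone was left out; the cause was not tested. With the clone number as a replicate block 3 genes and 0 members passed. No sample correlated best with its own number (0 of 8), and the main fit did not pair the clones. Whether same-numbered clones shared an embryo or culture was not tested. The number of arrays limits the precision.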
